A study of Mus musculus with 31 samples.

Results

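Ependymal-only peaks are stretches of open chromatin in mouse spinal cord, cut far more often in ependymal cells than in the other cells measured beside them. The name stands for the rule below, and most of these peaks were also cut to some extent in other cells. They come from 1 single-cell ATAC library made with the 10X method from uninjured C57BL/6 tissue, of cells labelled as not neurons and with no genotype named, in which a transposase cuts accessible DNA and each cut is assigned to a cell and a peak. Cut sites were summed over the authors' cell classes into 4 pools: ependymal cells (EP1, EP2 and EP3), astrocytes (ACNT1 and ACNT2), oligodendrocyte progenitors (OPC) and vascular cells (VEC, endothelial, with PER, pericytes). The names OPC, VEC and PER are abbreviations that were read in this way. Marker genes were summed by pool, so they do not tell VEC from PER. Members were chosen by these pooled levels, on mm10 coordinates as the deposited peak names give them: a peak was taken when its level in the ependymal pool was at least 10 CPM (cut sites scaled to a pool total of 1000000) and at least 4 times its level in each other pool. This left 2953 of 96670 peaks, or 3.05%, and 11.95% of the 24706 peaks that reached 10 CPM in ependymal cells. Because the pool levels chose these peaks, the levels are given as a description and are not tested.

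RNA was measured apart from the chromatin, in 12 Smart-seq2 libraries of about 1k sorted ependymal cells each, all on the C57BL/6 strain background. They cover the genotypes Foxj1-tdT and Foxj1-Olig2-tdT, each uninjured, at 1 dpi and at 5 dpi (read as days after injury), with 2 libraries per group. Both genotypes carry Foxj1 and tdT in their names, and Foxj1-Olig2-tdT has Olig2 in its name as well, the gene of a factor that drives oligodendrocyte fate. The labels do not say how the alleles are built, which promoter drives Olig2, the age of the mice, or if replicates are different animals. The p-values therefore reflect only how far the libraries of a group lie apart, and that can be technical.

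Ependymal cells line the central canal and move cerebrospinal fluid with bundles of motile cilia. The core of such a cilium, the axoneme, is built of microtubule doublets, dynein motors, radial spokes and a central pair, and the transcription factors FOXJ1 and RFX switch on many of the genes for these parts. Chromatin that is open in a single cell class often lies away from gene starts, whereas the starts of active genes tend to be open in many classes.

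The windows below are examples of ependymal-only peaks at the starts of cilium genes. They are not typical in how often they hold the letters marked. Each is the 250 bases before a RefSeq gene start (assembly GRCm38.p6, the coordinates of mm10), read 5′ to 3′ on the gene's strand, and lies inside an ependymal-only peak. The capitals mark the letters GTTGCCA or their reverse complement TGGCAAC, a core of the element bound by RFX factors. Cfap44, Pifo and Ccdc153 are on the lists of axoneme genes used below. Among the listed genes with such a window, Cfap44 and Pifo alone held the letters in these 250 bases. Odf3b, Fam183b and Dnah12 were among those without them. Tcp11, Fam166c and Cfap161 were picked among genes that hold the letters and are not on those lists, which do not name every gene of the cilium. All were chosen after their values were seen.
Cfap44: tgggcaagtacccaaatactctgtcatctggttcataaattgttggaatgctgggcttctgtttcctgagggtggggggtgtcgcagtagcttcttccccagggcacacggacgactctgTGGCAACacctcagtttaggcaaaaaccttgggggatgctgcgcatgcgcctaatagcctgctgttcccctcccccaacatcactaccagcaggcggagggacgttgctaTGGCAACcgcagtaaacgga
Pifo: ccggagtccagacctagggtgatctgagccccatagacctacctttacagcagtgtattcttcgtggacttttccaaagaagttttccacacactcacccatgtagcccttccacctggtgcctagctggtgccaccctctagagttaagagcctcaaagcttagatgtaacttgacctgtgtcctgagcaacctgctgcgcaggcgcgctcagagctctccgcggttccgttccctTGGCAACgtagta
Ccdc153: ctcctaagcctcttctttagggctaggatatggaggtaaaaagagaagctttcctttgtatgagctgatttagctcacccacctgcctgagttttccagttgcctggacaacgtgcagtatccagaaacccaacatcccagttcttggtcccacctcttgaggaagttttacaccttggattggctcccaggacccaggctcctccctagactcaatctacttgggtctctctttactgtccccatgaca
Tcp11: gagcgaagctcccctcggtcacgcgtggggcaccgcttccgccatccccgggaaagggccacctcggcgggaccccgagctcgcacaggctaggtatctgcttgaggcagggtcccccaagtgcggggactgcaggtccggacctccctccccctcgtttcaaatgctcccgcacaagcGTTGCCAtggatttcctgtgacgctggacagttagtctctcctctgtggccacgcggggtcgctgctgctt
Fam166c: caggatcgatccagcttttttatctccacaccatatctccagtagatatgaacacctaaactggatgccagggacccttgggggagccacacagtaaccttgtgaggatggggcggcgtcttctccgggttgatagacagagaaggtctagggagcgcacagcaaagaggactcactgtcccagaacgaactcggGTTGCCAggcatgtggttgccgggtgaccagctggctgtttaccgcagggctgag
Cfap161: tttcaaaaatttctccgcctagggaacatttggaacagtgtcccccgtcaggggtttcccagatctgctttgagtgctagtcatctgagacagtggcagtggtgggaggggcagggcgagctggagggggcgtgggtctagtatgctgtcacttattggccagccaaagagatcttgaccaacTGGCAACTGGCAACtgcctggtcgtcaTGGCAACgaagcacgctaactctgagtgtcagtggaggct

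The Cfap44 window (chr16:44394549-44394798, plus strand) holds the letters at 2 places, of which the nearer begins 20 bases before the start. In the Pifo window (chr3:106001498-106001747, minus strand) they begin 13 bases before it. The Cfap161 window (chr7:83794840-83795089, minus strand) holds them at 3 places, beginning 67, 60 and 40 bases before the start. Tcp11 (chr17:28079765-28080014, minus strand) has them 71 bases and Fam166c (chr5:30465827-30466076, plus strand) 55 bases before the start. The Ccdc153 window (chr9:44240427-44240676, plus strand) has no exact match, which says only that these letters are not in this window. The peaks over these starts stood at 47.7 CPM (Cfap44), 35.4 CPM (Pifo), 77.4 CPM (Ccdc153), 82.1 CPM (Tcp11), 59.0 CPM (Fam166c) and 34.5 CPM (Cfap161) in the ependymal pool.

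The ependymal pool held 754 cells and 24882631 cut sites, against 173 cells and 3384325 for astrocytes, 67 cells and 2541658 for progenitors, and 90 cells and 1398896 for vascular cells. A single cut is therefore worth 0.0402 CPM in ependymal cells but 0.295, 0.393 and 0.715 CPM in the other pools, and for a peak with no cut in vascular cells the floor of 3 cuts is 2.14 CPM and the exact Poisson 95% upper limit 2.64 CPM. Intervals and such floors cover counting error only, and 1 library gives no replicate check. Over the ependymal-only peaks the median level was 20.01 CPM in ependymal cells, with quartiles of 13.8 and 31.5. The medians elsewhere were 1.18 CPM in astrocytes, 1.57 in progenitors and 1.43 in vascular cells. In these pools 85, 64 and 77 of the members reached 10 CPM as well. There were 80 peaks with no cut in any of the other pools, 1155 at 8 or more times each other pool and 336 at 16 or more times. The exact Poisson 95% interval of the ependymal level lay above that of each other pool for all 2953 peaks. The thresholds of the rule ensure this at these depths, so it is no check on the peaks. The lower limit was at least 4 times the other pools' upper limits for only 662. At the edges of the rule, the nearest peak inside had 249 ependymal cuts (10.01 CPM) and the nearest outside 248 (9.97 CPM), and folds of the nearest peaks ran up to 4.002 inside and down to 3.996 outside.

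Cell by cell, the ependymal-only peaks took a median of 7.72% of an ependymal cell's cut sites. The median was 0.616% in astrocytes, 0.404% in progenitors and 0.347% in vascular cells. The highest cells outside the ependymal classes reached 3.85% (astrocyte), 4.40% (progenitor) and 4.79% (vascular), and none of the 173, 67 and 90 cells of these classes came to 6.21%, the 5th percentile of ependymal cells. The classes overlap through a few ependymal cells, the lowest at 0.662%. No doublet caller was run, and the authors' classes were used as deposited.

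**Figure D1:**
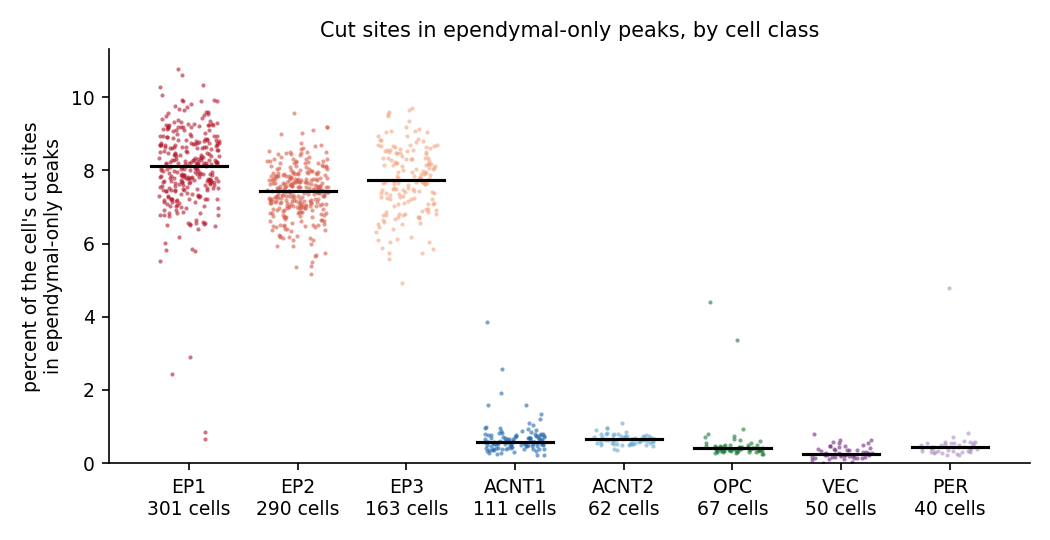
Percent of each cell's cut sites that fall in ependymal-only peaks (y axis) by the authors' cell class (x axis); each point is 1 of 1084 cells and each bar a class median. The EP classes centre near 8% and the other classes below 1%, with a few EP1 cells low and a few cells of other classes between 2% and 5%; the same cells chose the peaks, so the gap is a description.

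The label was checked against marker genes. Of 10 ependymal markers, all had a peak within 2 kb of the start and 8 were highest in the ependymal pool, with a summed level of 767 CPM against 413, 414 and 389 CPM in astrocytes, progenitors and vascular cells. Astrocyte markers were highest in the astrocyte pool (493 CPM summed over 7 peaks, against 207 in ependymal cells) and progenitor markers in the progenitor pool (535 CPM, against 413 in astrocytes and 79.5 in ependymal cells). Of the ependymal markers, Ccdc153 and Pifo had an ependymal-only peak. The peak at Foxj1, the master regulator of motile cilia, stood at 248 CPM in ependymal cells but at 124 CPM in astrocytes, so at 2.004 times the highest other pool it missed the rule.

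The 3 ependymal classes shared most of these peaks, in part because the rule used their summed cuts. EP2 gave 15283010 of the 24882631 cut sites of that sum. In all, 2321 of the 2953 (78.6%) reached 10 CPM in each of EP1, EP2 and EP3, and 2524, 2688 and 2387 met the whole rule with EP1, EP2 or EP3 alone. Over all peaks, members or not, 3282, 2934 and 3098 met it with EP1, EP2 or EP3 alone, so pooling left some out. No member was 4 times higher in EP1 or in EP2 than in both other ependymal classes, and 5 were in EP3. The clearest lies 196 kb from the start of Opa1, a gene of mitochondrial fusion (chr16:29775520-29776635), with 45.1 CPM in EP3 against 4.61 in EP1 and 3.93 in EP2. Another, 7.51 kb from Qrsl1 (chr10:43892944-43894224), had 34.1 CPM in EP3 against 4.61 and 4.84.

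Levels count all cuts in a peak and were not scaled by its width, so wide peaks rank high more easily. The 12 highest were 2730 to 10452 bases wide, against a median of 1248 for all members. The highest peak covers the start of Crb2, a Crumbs protein that sets apical polarity in epithelia (chr2:37774515-37784967, running into the gene). It stood at 201 CPM in ependymal cells (95% interval 196 to 207) against 38.4 in astrocytes, 30.7 in progenitors and 18.6 in vascular cells. A peak inside Ndst1, a heparan sulfate enzyme, followed at 179 CPM, against 41.1 in astrocytes, 37.8 in progenitors and 31.5 in vascular cells. In each of the 12 highest peaks another pool reached 10.6 CPM or more. Shroom3, which drives apical constriction through actin, held 2 of the 12 highest: a peak inside the gene 27.8 kb from its start (chr5:92837221-92844844, 146 CPM) and another over the start (chr5:92808137-92814300, 132 CPM). Both Lrrc74b (chr16:17557863-17563686, 137 CPM) and Tmem108 (chr9:103686694-103694183, 118 CPM) had theirs over the start. The other 6 lie 7.65 kb or more from the nearest start. A peak 11.7 kb from Alg10b (chr15:90235980-90239851) had 133 CPM in ependymal cells and 10.6, 4.73 and 1.43 CPM in progenitors, astrocytes and vascular cells, 12.6 times the highest of them and the widest gap among the 12. A peak with Sox2, a gene of neural stem cells, as its nearest coding gene lies 449 kb from it (chr3:35098797-35106495, 132 CPM), and distance alone does not tie it to that gene. Others lie near Dapl1 (151 CPM), inside Sorl1 (127 CPM) and near Ifitm6 (124 CPM).

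**Figure D2:**
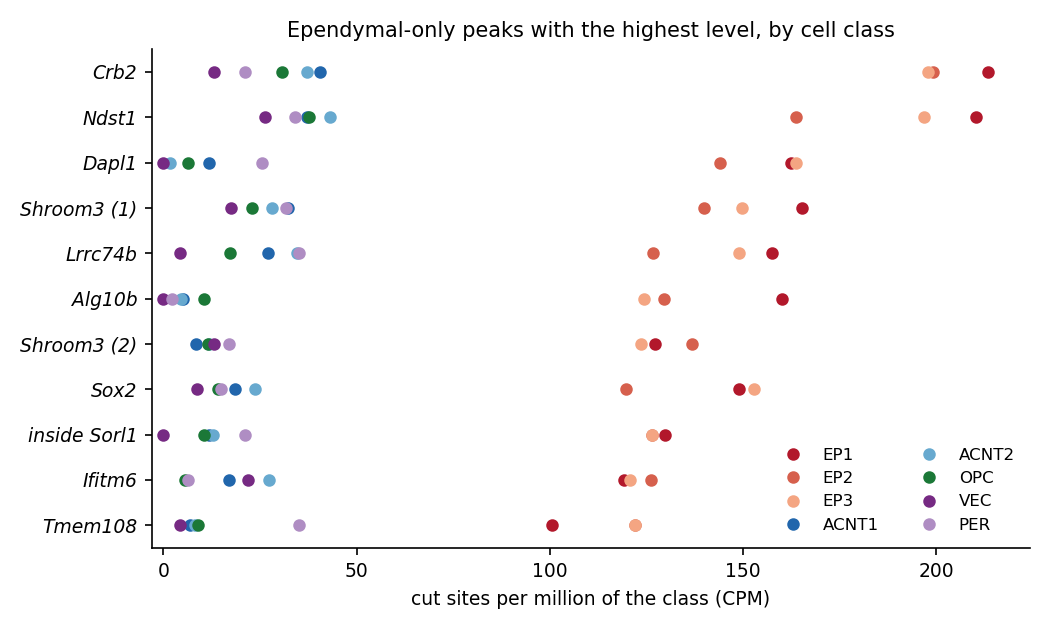
Level (x axis, CPM within each class) of 11 of the 12 ependymal-only peaks with the highest ependymal level, named by nearest gene or, for Sorl1, the gene they lie in; points are the 8 cell classes. EP1, EP2 and EP3 stay together between 100 and 214 CPM, and no other class passes 44 CPM.

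Most ependymal-only peaks lie away from gene starts. Of the 2953, 210 (7.11%, 95% exact interval 6.21 to 8.10) came within 2 kb of a protein-coding start, against 17.3% of all peaks and 49.4% of the peaks that reached 10 CPM in ependymal cells but missed the fold. Sets picked in the same way for the other pools gave 6.23% (1236 astrocyte-only peaks), 19.1% (1717 progenitor-only peaks) and 11.8% (1741 vascular-only peaks), though at fewer cuts per peak. Wider peaks reach a start more easily, and the ependymal-only peaks had a median width of 1248 bases against 587 for all peaks. Among peaks of 500 to 1500 bases the shares were 4.98% of 1927 ependymal-only peaks, 40.9% of 10413 that missed the fold, and 17.4% of 43137 in all. The share also counts either end of a gene where the start was not known, as for 71 of the 210. With known starts alone it was 4.71%, against 13.3% of all peaks.

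The median distance to a start was 37.1 kb (24.4 kb for all peaks). Beyond 100 kb lay 743 peaks (25.2%, against 19.1% of all peaks and 23.9% of astrocyte-only peaks). Inside a gene but over 2 kb from a start were 1435 peaks (48.6%, against 46.1% of all peaks). Outside genes and over 2 kb from a start were 1308 (44.3%, against 36.6%). The share of a chromosome's peaks that were ependymal-only ran from 2.14% on chromosome X to 3.65% on chromosome 13. Another ependymal-only peak lay within 50 kb of 946 of them (32.0%), and runs of neighbours reached 6 peaks. Within their own sets the shares were 27.3% for astrocyte-only, 22.1% for progenitor-only and 34.5% for vascular-only peaks, with runs of up to 7, 6 and 6.

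**Figure D3:**
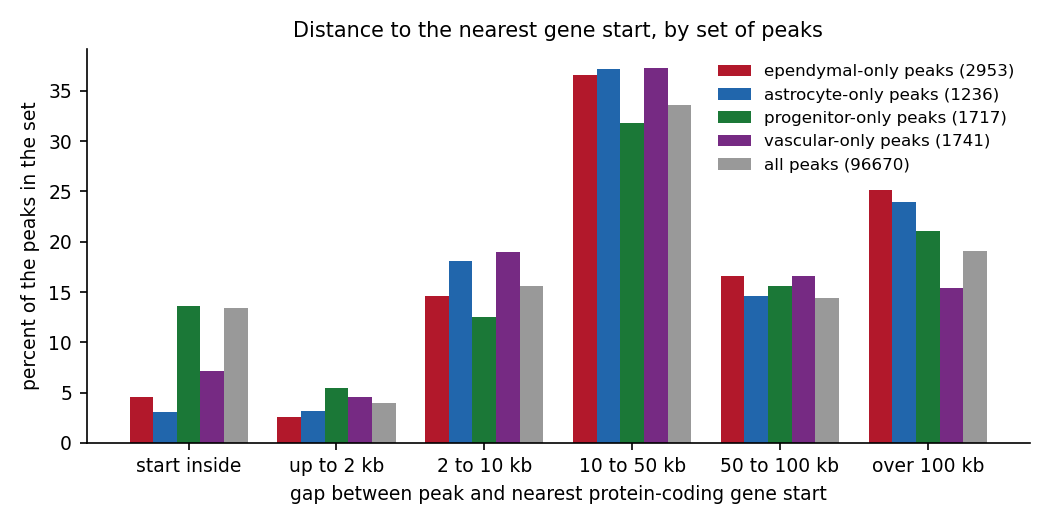
Share of peaks (y axis, percent of each set) by the gap to the nearest protein-coding gene start (x axis) for the ependymal-only peaks, the sets picked in the same way for the other pools, and all peaks. Ependymal-only peaks are scarce at starts (4.54% with a start inside, 13.4% for all peaks, 3.07% for astrocyte-only peaks). Beyond 100 kb lie 25.2% of them, 19.1% of all peaks and 23.9% of astrocyte-only peaks.

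With each peak given to the nearest coding gene within 100 kb, 2210 peaks fell to 1771 genes, of which 1442 had 1 peak and 71 had 3 or more. Celsr1, a cadherin of planar cell polarity that helps align cilia, led with 8 ependymal-only peaks over 144 kb (chr15:85891557-86035431, the highest at 87.9 CPM). Dnajc6, the clathrin-uncoating factor auxilin, had 7, and Sorbs2, an adaptor at actin and cell junctions, had 6. Shroom3 and the RefSeq genes Gm44812 and Gm30733 were among those with 5. Large genes with many peaks collect more of them: 34 peaks of any kind were nearest to Celsr1 and 37 to Shroom3.

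Axoneme genes had an ependymal-only peak within 2 kb at a higher share than coding genes as a whole, in lists drawn up with earlier results of these data known and without a test. In all 218 of 21887 coding genes (0.996%) had such a peak. Of 43 radial spoke, central pair, tektin and other axoneme genes, 13 did (30.2%): 1700012B09Rik, Ccdc153, Cfap126, Cfap44, Cfap53, Fam183b, Morn3, Odf3b, Pifo, Rsph4a, Spag16, Spag17 and Spag6l. Of 31 axonemal dyneins and their assembly factors, 4 did (12.9%). These are the dynein heavy chain genes Dnah1, Dnah10 and Dnah12, and Armc4, which docks the outer dynein arm. No peak of the kind lay at the 13 genes listed as ciliogenesis transcription factors or the 29 genes of intraflagellar transport and the BBSome (the transport machinery of cilia). The first list also holds Ift88, a transport gene, and Ccno, a cyclin gene, which are not transcription factors. None lay at the basal body genes either, of which 14 listed names were found in the annotation, with Deup1 also listed under its older name Ccdc67. All genes found from these lists had a peak near the start that failed the rule. Of 24 other ependymal genes only Cryab, a small heat shock protein, had an ependymal-only peak, and of 6 fibroblast markers only Col1a1 did.

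Of the 17 axoneme genes, 15 had a peak above the median level of all ependymal-only peaks and 10 above the upper quartile. Higher peaks lay near starts more often in general (9.005% within 2 kb at 20 CPM or more, against 7.11% of all members). The axoneme genes were not compared with other peaks near starts. The highest of them, over the Ccdc153 start (chr9:44239445-44241932), had 77.4 CPM in ependymal cells and 3.25, 7.08 and 11.4 CPM in astrocytes, progenitors and vascular cells. At Odf3b, which encodes a protein of the ciliary microtubules (chr15:89376525-89379934), the levels were 57.3, 0.295, 3.15 and 10.0 CPM. At Fam183b, a gene of motile ciliated cells (chr11:58801010-58802741), they were 46.1, 1.18, 3.15 and 2.86 CPM. The lowest in the ependymal pool was that of Morn3 at 16.6 CPM.

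The letters GTTGCCA were found in more of these promoters than in others. Of 105 promoter windows of 300 bases (250 before to 50 after a start, 99 genes) lying inside an ependymal-only peak, 20 (19.0%) held GTTGCCA on either strand, against 4.42% of 12250 windows inside any peak and 4.18% of all 21263 windows. In sets picked for the other pools it was 0 of 31 (astrocytes), 4.67% of 150 (progenitors) and 2.82% of 71 (vascular cells). By gene it was 18 of 99 (18.2%). The forkhead letters TGTTTAC were in 4.76% against 2.35% of windows inside any peak, the SOX letters ACAATGG in 3.81% against 1.84%, and the AP-1 letters TGANTCA in 11.4% against 4.31%. The AP-1 letters were more frequent still in vascular-only windows (21.1%). The E-box CAGCTG was in 18.1% against 14.7% and the E-box CATATG in 1.90% against 1.31%, while the ETS letters CCGGAAGT were in 0.952% against 8.24%. The palindromic RFX element (an RFX core and its mirror image) and the palindromic NFI element were in none. The windows in ependymal-only peaks also held less G and C (median 54.0% against 62.3% inside any peak). A match is a description of letters and not a bound site, the motifs were picked with ependymal biology in mind, and none of these shares was tested.

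The RNA of the genes at these peaks was then examined, which the rule had not used. The values are normalised counts per gene as deposited, with library sums of 12601290 to 13878102, and how they were scaled and at what depth is not given in the sources used here. Of the 218 genes with an ependymal-only peak within 2 kb, 196 (89.9%) were in the table of 16301 rows and 195 passed the filter on low values. A share of 88.7% of genes with any peak near the start were in the table, and 76.1%, 69.9% and 73.6% of those at astrocyte-only, progenitor-only and vascular-only peaks. Fold changes are on the scale log2(normalised count + 1), calls rest on limma's adjusted p under 0.05 over all 15811 genes tested, and a fall in a sorted bulk sample cannot tell fewer ependymal cells from less RNA per cell.

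The libraries matched their labels for Olig2, which had 4.50 and 4.40 normalised counts in uninjured Foxj1-tdT and 2450 and 1690 in uninjured Foxj1-Olig2-tdT. Foxj1-tdT replicate 2 at 5 dpi stood apart with 195 against 17.4 in its partner. The uninjured Foxj1-tdT libraries were far closer to each other (r = 0.989 across genes) than the partners of any other group (0.864 to 0.928), so the counts of genes at ependymal-only peaks are also given with this pair entered as 1 library. Markers of other cells moved with injury. The 5 fibroblast markers in the table (of 6) summed to 353 and 410 in uninjured Foxj1-tdT, 13848 (nearly all of it Dcn) and 215 at 1 dpi, 4427 to 6528 at 5 dpi, and 8597 to 9598 in Foxj1-Olig2-tdT at 5 dpi. The 7 mature oligodendrocyte markers summed to between 2185 and 22182 in Foxj1-tdT and between 4409 and 9718 in Foxj1-Olig2-tdT, with the highest sum in Foxj1-tdT replicate 1 at 1 dpi. The same library had 4428 over 5 of 7 neuron markers, against 20.8 to 344 in the other 11, so it is left out in turn below. The 9 astrocyte markers summed to between 23892 and 42413 in all 12 libraries, but single markers moved in both directions. In Foxj1-tdT, Gfap went from 959 and 919 without injury to 19838 and 17606 at 1 dpi. Slc1a3 went from 5387 and 5320 to 1652 and 1052. Aqp4 had 2521 and 2463 in uninjured Foxj1-tdT and 8250 and 15042 in uninjured Foxj1-Olig2-tdT. Of 9 oligodendrocyte progenitor markers 8 were in the table, and they summed to 7.0 to 92.2 in Foxj1-tdT before 5 dpi, 200 and 1692 at 5 dpi, and 4714 to 5338 in Foxj1-Olig2-tdT at 5 dpi, most of it Olig2 itself. Pdgfra, which defines progenitors, was at 0 in 8 of the 12 libraries, and Sox10 had 592 and 765 in Foxj1-Olig2-tdT at 5 dpi and at most 6.3 elsewhere. The 4 microglial and myeloid markers in the table (of 7) summed to 415 to 544 in uninjured and 963 to 1373 in 5 dpi Foxj1-Olig2-tdT and to 499 to 1019 in Foxj1-tdT. Of these, Csf1r, P2ry12 and Ptprc were each at or under 49.1 throughout and so held little of the sum. In Foxj1-tdT the 3 vascular endothelial markers in the table (of 8) summed to 202 and 232 before injury and 27.1 to 56.0 after it. The 4 pericyte markers (of 7) summed to 8.10 and 24.2 in uninjured Foxj1-Olig2-tdT and 288 and 401 at 1 dpi. The 10 ependymal markers summed to 98030 and 98907 in uninjured Foxj1-tdT, 22845 to 35086 at 1 dpi and 31153 to 35476 at 5 dpi. In Foxj1-Olig2-tdT they summed to 114203 and 123904 without injury, 50154 to 56573 at 1 dpi and 7324 to 9433 at 5 dpi. The part of these shifts in the results below was not tested.

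After injury of Foxj1-tdT mice, the genes at ependymal-only peaks fell more often than they rose. At 1 dpi 13 of the 195 were higher and 89 lower (52.3% called), where 27.4% of all genes tested were called (15.4% higher and 12% lower), and their median change was -1.23 against 0.00 for all genes. At 5 dpi 20 were higher and 75 lower (48.7%, against 23.0% of all genes, 13.8% higher and 9.21% lower), with a median of -1.14 against 0.04. Both comparisons share the uninjured libraries. With the uninjured pair as 1 library, 51 (4 higher, 47 lower) and 46 (6 higher, 40 lower) were called, where 11.1% and 8.28% of all genes were. Without Foxj1-tdT replicate 1 at 1 dpi, the library with neuron markers, the 1 dpi count was 86, and without replicate 2 it was 61. The 5 dpi count was 71 without Foxj1-tdT replicate 2 at 5 dpi. Genes at vascular-only peaks went the other way at 1 dpi, with 37 of 148 higher and 7 lower. So did those at progenitor-only peaks, with 29 of 215 higher and 10 lower, while those at astrocyte-only peaks gave 7 higher and 7 lower of 52. In uninjured Foxj1-tdT the median normalised count was 24.25 (vascular-only), 4.35 (progenitor-only) and 70.0 (astrocyte-only), against 718 at ependymal-only peaks. It was 211 over all genes of the table and 311 for genes with any peak within 2 kb. Genes near 0 have little room to fall. The part of this in the directions, and in the shares set beside all genes, was not tested.

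Ccdc153 is an axoneme gene that fell by more than the median of the axoneme genes with an ependymal-only peak at both times. It had 22994 and 24154 normalised counts in uninjured Foxj1-tdT, 7363 and 4456 at 1 dpi, followed by 3260 and 4570 at 5 dpi. The injured libraries were all below the uninjured ones, while those of 1 dpi and 5 dpi overlapped. It fell by 2.04 (SE 0.24, adjusted p = 0.000316) at 1 dpi and by 2.61 (SE 0.24, adjusted p = 0.000142) at 5 dpi on the log2 scale. Dnah12 had 6161 and 5932 before injury, then 2080 and 2003 at 1 dpi and finally 2470 and 2865 at 5 dpi, again with no overlap, and fell at both times. Of the 17 axoneme genes with an ependymal-only peak, 16 fell at 1 dpi and 14 at 5 dpi, with medians of -1.43 and -1.33. With the uninjured pair as 1 library 10 of them fell at each time, and without Foxj1-tdT replicate 1 at 1 dpi 13 fell at 1 dpi. Axoneme genes without such a peak fell as well: 23 of 29 spoke, central pair and other axoneme genes and 14 of 26 dynein genes at 1 dpi.

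Genes at these peaks that are not on the axoneme lists also changed. Gm28729 had 2514 and 2404 normalised counts in uninjured Foxj1-tdT, 371 and 290 at 1 dpi, with 186 and 173 at 5 dpi. The groups lay well apart, and it fell by 3.77 (SE 0.32, adjusted p = 0.000107) at 5 dpi. Hpgds, a prostaglandin D synthase, had 264 and 274 without injury and 2.90 and 37.7 at 1 dpi, where it fell, but 97.9 and 291 at 5 dpi, where its libraries overlapped the uninjured ones. The Hpgds call at 1 dpi was lost with the uninjured pair as 1 library and without Foxj1-tdT replicate 1 at 1 dpi (limma's adjusted p up to 0.0824). Lrrc52 had 232 and 231 without injury and 18.5 and 1.00 at 5 dpi, where it fell by 5.22 (SE 0.95, adjusted p = 0.00392). Ttll10, a tubulin glycine ligase relative, had 121 and 114 without injury and was listed at 0 in both libraries at 1 dpi.

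The genes that rose included signals and matrix genes. Clcf1, a cytokine of the interleukin-6 family, was listed at 0 in both uninjured Foxj1-tdT libraries and had 446 and 887 normalised counts at 1 dpi and 216 and 74.8 at 5 dpi. Galectin-3 (Lgals3), a glycan-binding protein of activated glia, had 1536 and 1424 before injury, then 8291 and 9980 at 1 dpi and finally 9840 and 4497 at 5 dpi. It rose by 2.62 (SE 0.40, adjusted p = 0.00124) at 1 dpi and by 2.17 (SE 0.40, adjusted p = 0.00422) at 5 dpi, with all injured libraries above the uninjured ones.

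Col1a1 belongs to the fibroblast markers that moved with injury. It had 25.1 and 3.10 before injury, then 5.60 and 10.8 at 1 dpi and finally 842 and 673 at 5 dpi, where it rose by 6.19 (SE 0.91, adjusted p = 0.00134). Cnn1, a calponin of contractile cells, was called at 5 dpi, but its libraries there were far from each other (10378 and 1118, against 87.4 and 46.6 without injury), and the call was lost in 8 of the alternatives, among them the uninjured pair as 1 library (limma's adjusted p up to 0.214). The trophic factor gene Gdnf had 61.4 and 117 at 5 dpi, and neither uninjured library listed it above 0.

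In Foxj1-Olig2-tdT mice the response was small at 1 dpi and large at 5 dpi. At 1 dpi 5 genes were higher and 18 lower (11.8% called, against 8.09% of all genes, 5.93% higher and 2.16% lower), with a median of -0.58 against 0.00. At 5 dpi 14 were higher and 118 lower (67.7%, against 31.2% of all genes, 17.2% higher and 14.0% lower), with a median of -2.49 against 0.12. With the Foxj1-tdT uninjured pair as 1 library, which acts here through the shared spread, 16 and 123 were called (5.20% and 26.4% of all genes). The 1 dpi count was 8 without Foxj1-Olig2-tdT replicate 1 at 1 dpi and 14 without replicate 2. Of genes at vascular-only peaks, 53 of 148 were higher and 9 lower at 5 dpi, and of those at progenitor-only peaks 49 of 215 were higher and 11 lower. Their medians in uninjured Foxj1-Olig2-tdT were 27.1 (vascular-only) and 7.45 (progenitor-only) normalised counts, against 734 at ependymal-only peaks, so they too had less room to fall. The median over all genes of the table was 215 there.

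All 17 axoneme genes with an ependymal-only peak fell at 5 dpi, with a median of -3.27. So did all 29 other genes of the spoke, central pair and axoneme list (median -3.08) and 25 of 26 other dynein genes (median -2.85), which had no such peak. The transport genes, none with such a peak, fell in 25 of 29 cases with a smaller median of -1.41. The genes listed as ciliogenesis transcription factors, a list that also holds Ift88 and Ccno, gave 7 lower and 2 higher of 12 tested. Among genes with a window inside an ependymal-only peak, 17 of 17 with the letters GTTGCCA fell (median -3.70), and 56 of 76 without them fell and 2 rose (median -3.07). The difference between these sets was not tested.

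Ccdc153 went from 26339 and 24061 normalised counts in uninjured Foxj1-Olig2-tdT to 12573 and 12286 at 1 dpi and 1169 and 872 at 5 dpi. Each time was below the one before in both libraries, and at 5 dpi it fell by 4.64 (SE 0.24, adjusted p = 1.64e-06). Fam183b had 12414 and 11275 before injury, then 8539 and 8849 at 1 dpi and finally 1348 and 1116 at 5 dpi, and fell by 3.27 (SE 0.15, adjusted p = 1.34e-06) at 5 dpi. Of the genes whose promoters are shown above, all fell at 5 dpi, with changes of -4.39 for Fam166c (listed as 1700001C02Rik), -4.58 for Cfap161, -3.70 for Tcp11, -2.76 for Pifo and -2.18 for Cfap44. Foxj1 itself, whose peak was not ependymal-only, fell from 3209 and 3387 to 982 and 934, a change of -1.78 (SE 0.16, adjusted p = 3.04e-05).

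Bace2, an aspartyl protease related to beta-secretase, had 2603 and 2043 normalised counts in uninjured Foxj1-Olig2-tdT and 11.8 and 37.0 at 5 dpi, and fell by 6.71 (SE 0.48, adjusted p = 8.33e-06). Htr5b, a serotonin receptor, had 5269 and 4845 without injury and 38.0 and 86.4 at 5 dpi, a change of -6.44 (SE 0.55, adjusted p = 2.4e-05). Smim5, a small membrane protein, had 1453 and 1324 before injury, then 494 and 450 at 1 dpi and finally 37.3 and 27.1 at 5 dpi. It fell at both times, by 5.40 (SE 0.27, adjusted p = 1.49e-06) at 5 dpi, and none of these groups overlap. Crb2, under the highest peak, had 1408 and 1727 before injury, then 452 and 508 at 1 dpi and finally 375 and 216 at 5 dpi, and fell at both times.

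Lgals3, Cryab, Col1a1 and Cnn1 rose at 5 dpi in this genotype. Lgals3 had 1584 and 951 normalised counts without injury and 30773 and 38936 at 5 dpi, and rose by 4.82 (SE 0.40, adjusted p = 1.91e-05). Cryab had 410 and 757 without injury and 14016 and 8830 at 5 dpi, and rose by 4.32 (SE 0.66, adjusted p = 0.00085). Col1a1 had 2.8 and 6.2 without injury and 2468 and 2583 at 5 dpi, in the libraries where the fibroblast markers were highest. In all of these the injured libraries lay above the uninjured ones.

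**Figure D4:**
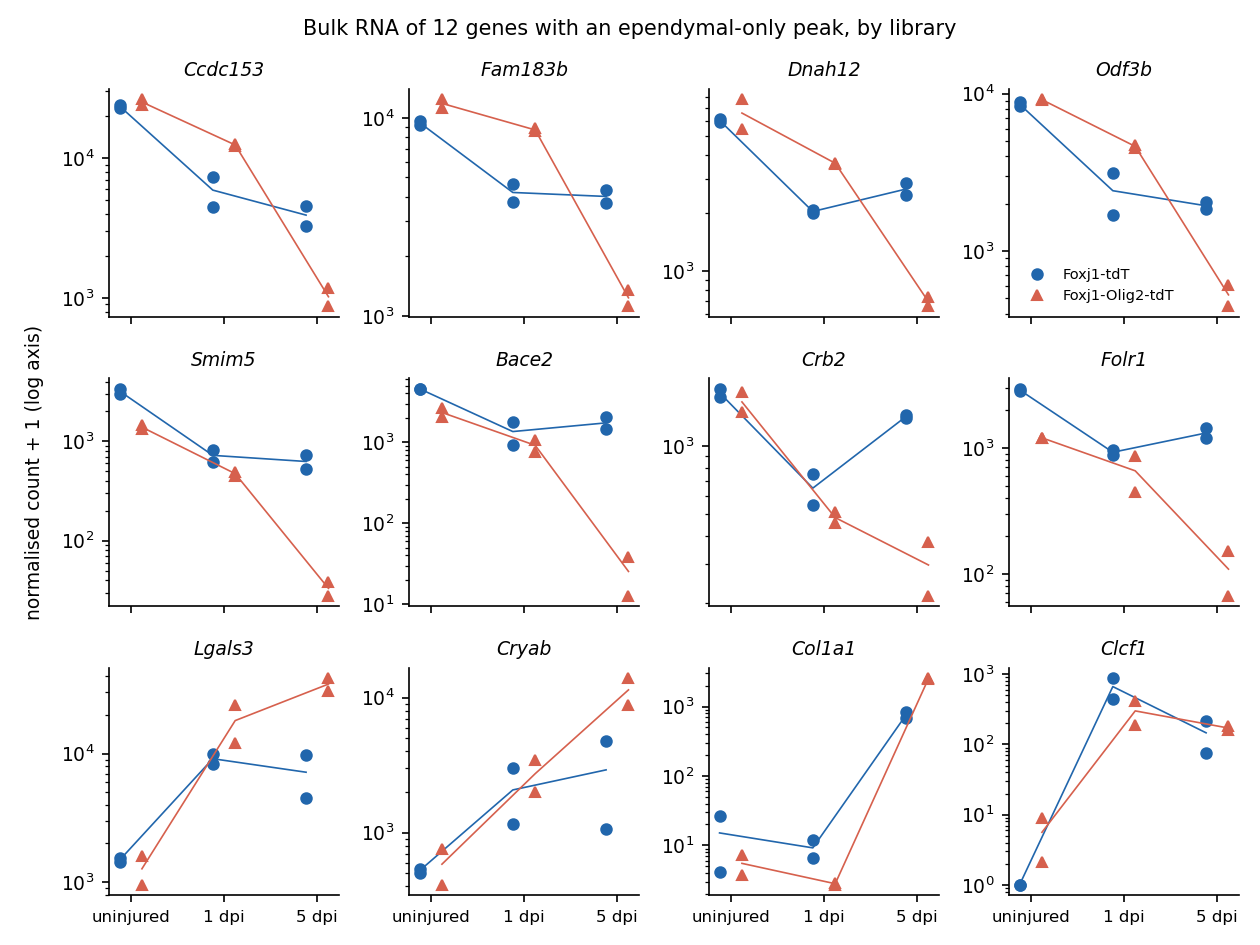
Normalised count + 1 (y axis, log scale, its range set per gene) of 12 genes with an ependymal-only peak within 2 kb, by time (x axis) and genotype; each marker is 1 library and lines join group means. Cilium genes (Ccdc153, Fam183b, Dnah12, Odf3b) drop at 1 dpi in Foxj1-tdT and lowest at 5 dpi in Foxj1-Olig2-tdT. The means of Lgals3, Cryab, Col1a1 and Clcf1 are higher at 5 dpi than without injury in both genotypes. Col1a1 is not raised at 1 dpi, and Clcf1 is highest at 1 dpi.

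Between genotypes without injury, few genes at these peaks differed. In uninjured Foxj1-Olig2-tdT 3 of the 195 were higher and 4 lower (3.59% called, against 7.79% of all genes, 4.72% higher and 3.07% lower), and with the Foxj1-tdT pair as 1 library none was by limma (14 at an unadjusted p under 0.05) and 1.33% of all genes were. Smim5 was lower (1453 and 1324 against 3019 and 3391, a difference of -1.21, SE 0.27, adjusted p = 0.0264). Unc5cl was higher (1102 and 982 against 213 and 217). Neither call held with the Foxj1-tdT pair as 1 library, and over all alternatives limma's adjusted p reached 0.254 for Smim5 and 0.236 for Unc5cl. None of the 17 axoneme genes was called by limma (3 at an unadjusted p under 0.05), and their median difference was 0.10.

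At 1 dpi 11 genes were higher and none lower by limma (8 lower at an unadjusted p under 0.05) in Foxj1-Olig2-tdT than in Foxj1-tdT (5.64% called, against 1.84% of all genes, 1.29% higher and 0.55% lower), with a median of 0.60 against -0.02. This count rests on few libraries: it was 2 with the uninjured pair as 1 library (0.491% of all genes), and between 1 and 6 without any of Foxj1-tdT replicate 2 at 1 dpi, either uninjured Foxj1-tdT library, or any Foxj1-Olig2-tdT library at 1 or 5 dpi. Spag6l, a central pair protein, had 4652 and 5957 normalised counts against 2813 and 1691 in Foxj1-tdT, a difference of 1.27 (SE 0.27, adjusted p = 0.0456), a call lost in 9 of the alternatives (up to 0.174). Fam183b had 8539 and 8849 against 4623 and 3775, a difference of 1.06 (SE 0.15, adjusted p = 0.0108), a call lost without replicate 2 of either genotype at 1 dpi (up to 0.0560).

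At 5 dpi the order was reversed. In Foxj1-Olig2-tdT 5 genes were higher and 85 lower (46.2% called, against 9.23% of all genes, 3.36% higher and 5.88% lower), with a median of -1.46 against 0.01. The count was 69 (3 higher, 66 lower) with the uninjured pair as 1 library (5.71% of all genes), 57 without Foxj1-Olig2-tdT replicate 2 at 5 dpi and 64 without Foxj1-tdT replicate 2 at 5 dpi. Of the 17 axoneme genes 15 were lower, with a median of -1.72. Ccdc153 had 1169 and 872 normalised counts against 3260 and 4570 in Foxj1-tdT, a difference of -1.93 (SE 0.24, adjusted p = 0.00128). Crb2 had 375 and 216 against 1332 and 1369, a difference of -2.24 (SE 0.28, adjusted p = 0.00133). Folr1, a folate receptor, had 66.2 and 150 against 1186 and 1431, a difference of -3.70 (SE 0.39, adjusted p = 0.000517).

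The 5 genes that were higher were Lgals3, Tpx2, Syt4, Ppp4r1 and Arc. The call of Ppp4r1 was lost in 13 of the alternatives (limma's adjusted p up to 0.235) and that of Syt4 without either Foxj1-Olig2-tdT library at 5 dpi (up to 0.162). Tpx2, a factor of the mitotic spindle, had 1930 and 3354 normalised counts against 421 and 466 in Foxj1-tdT at 5 dpi, a difference of 2.52 (SE 0.29, adjusted p = 0.000888). Lgals3 had 30773 and 38936 against 9840 and 4497, a call lost without Foxj1-Olig2-tdT replicate 2 at 5 dpi (limma's adjusted p 0.0589). Arc, an activity-induced gene, had 37.1 and 70.8 at 5 dpi in Foxj1-Olig2-tdT and was listed at 0 in the 2 Foxj1-tdT libraries of that time, a call lost in 7 of the alternatives (up to 0.187).

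**Figure D5:**
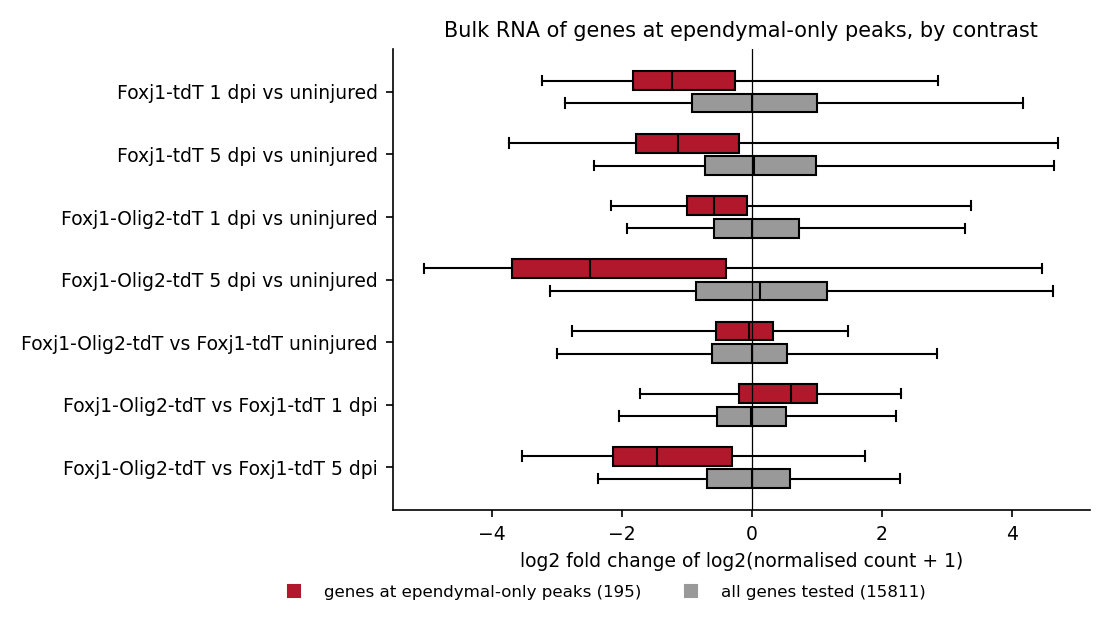
Log2 fold change of log2(normalised count + 1) (x axis) in 7 comparisons (y axis) for the 195 tested genes with an ependymal-only peak within 2 kb and for all 15811 genes tested; boxes give quartiles and median, whiskers the 5th and 95th percentiles. The medians of the genes at these peaks are below 0 after injury, furthest in Foxj1-Olig2-tdT at 5 dpi (-2.49), above 0 between genotypes at 1 dpi (0.60) and below 0 at 5 dpi (-1.46); comparisons share libraries.

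The effect of injury itself differed between genotypes at 5 dpi. The interaction of genotype and injury was called for 54 of the 195 genes, 5 higher and 49 lower in Foxj1-Olig2-tdT (27.7%, against 7.28% of all genes, 2.64% higher and 4.64% lower), with a median of -1.32 against -0.02. It was called for 24 (1.60% of all genes) with the uninjured pair as 1 library, and for 39 without Foxj1-tdT replicate 2 at 5 dpi. Of the 17 axoneme genes 12 were called, all lower, and 8 with that pair as 1 library. At 1 dpi limma called it for 4, all higher (2.05%, against 2.77% of all genes, 0.923% higher and 1.85% lower, and 4 members lower at an unadjusted p under 0.05). With that pair as 1 library, or without either uninjured Foxj1-tdT library or Foxj1-tdT replicate 2 at 1 dpi, limma called none (24 at an unadjusted p under 0.05 in the first case).

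Peaks far from starts cannot be given to a gene by distance alone, and the RNA of their nearest genes varied. With the nearest gene up to 100 kb in place of genes within 2 kb, 511 of 1543 genes (33.1%) were called in Foxj1-tdT at 1 dpi, 161 higher and 350 lower, with a median of -0.47, where 27.4% of all genes were called. Among genes with the most ependymal-only peaks, Celsr1 had 600 and 643 normalised counts in uninjured Foxj1-tdT and 270 and 194 at 1 dpi, where it fell by 1.44, a call lost with the uninjured pair as 1 library (limma's adjusted p up to 0.132 over the alternatives). Sorbs2 moved the other way: it had 3426 and 3380 without injury and 9086 and 7021 at 5 dpi in Foxj1-tdT, and 4387 and 3208 against 9849 and 9730 in Foxj1-Olig2-tdT. It rose by 1.23 and 1.38, with no overlap between groups. Dnajc6 fell from 4293 and 2000 to 408 and 558 at 5 dpi in Foxj1-Olig2-tdT, by 2.62. Of the genes of the highest peaks, Lrrc74b fell by 4.11 and Tmem108 by 2.70 in that comparison, while Sox2, Shroom3, Dapl1 and Alg10b were not called in any of the 7 comparisons.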

How the data were processed

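Cut-site counts per peak and cell were deposited by the authors with their cell classes, the percent of fragments in peaks and a TSS enrichment ratio per cell (pool medians 4.48 to 6.49). The bulk RNA signal values are normalised counts deposited by the authors. In the submitters' processing notes, Cell Ranger ATAC, Cell Ranger, Bowtie2, SAMtools and deepTools are listed without versions, with mm10 as the build. How bulk reads were counted and scaled is not given in the sources used here. The values held no recoverable whole reads, so depth is unknown.

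Members, gene lists and tests were chosen with earlier results of these data known. Cut sites were summed per pool and scaled to CPM with exact Poisson and Clopper-Pearson 95% intervals (numpy 2.4.6, pandas 2.3.3, scipy 1.17.1, matplotlib 3.10.9). Gene starts came from RefSeq GRCm38.p6 promoter windows (250 bases before to 50 after), and genes without one counted at both ends. Distance is the gap from the peak edge.

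Bulk values were tested as log2(value + 1) with limma 3.58.1 (R 4.3.3) and a trended variance, for genes at 10 or more in 2 or more libraries, in 1 fit of 6 group means, with Benjamini-Hochberg adjustment per comparison. Named genes were Foxj1 and Olig2, up to 4 per list, and the 5 highest and 5 lowest called changes per comparison without overlap and with a mean of at least 50 in 1 group; examples among these, and the genes whose promoters are printed, were picked after their values were seen. Peaks named were the 12 highest and the 8 genes with most peaks, plus examples that differ between ependymal classes. Alternatives were other thresholds, windows, pool scalings, pseudocounts, filters and normalizations, a replicate block, the near-identical pair as 1 library, and each library left out. Scripts were tested on simulated data where they compute statistics across genes. The 12 bulk ATAC and 6 single-cell RNA samples were not analysed here. A few genes that these rules name are not reported here.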

Additional observations from a re-analysis of the deposited data

Results flagged for a closer look

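The effect of injury differed between the genotypes, by limma's test of the interaction with an adjusted p under 0.05, for the genes below, all named genes at ependymal-only peaks. Values below are differences of log2 fold changes, Foxj1-Olig2-tdT minus Foxj1-tdT, and both fold changes of a gene are against the uninjured libraries of its own genotype. The Foxj1-tdT uninjured pair, which enters each of them, is the pair whose libraries were nearly identical.

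At 5 dpi the changes of 7 named axoneme genes were lower in Foxj1-Olig2-tdT, by limma's interaction test. The differences were -2.03 for Ccdc153, -2.04 for Dnah12, -2.03 for Fam183b, -2.60 for Spag6l, -1.99 for Odf3b, -2.12 for Armc4 and -1.48 for Cfap44. Those of Ccdc153, Dnah12, Fam183b and Spag6l kept their call in all 18 alternatives, while Odf3b, Armc4 and Cfap44 lost theirs with the uninjured pair as 1 library. Acot5, an acyl-CoA thioesterase, differed by -2.26, with 2286 and 2440 normalised counts in uninjured Foxj1-tdT and 748 and 982 at 5 dpi, against 3460 and 4439 and then 338 and 258 in Foxj1-Olig2-tdT, and its call was lost with that pair as 1 library.

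Other values below 0 at 5 dpi were -5.29 for Bace2, -3.03 for Smim5, -3.92 for Htr5b, -2.43 for Folr1 and -2.10 for Crb2, of which Bace2 and Smim5 kept their call in all alternatives and the other three lost it with the pair as 1 library. Genes whose change was higher in Foxj1-Olig2-tdT at 5 dpi were Lgals3 (2.65) and Tpx2 (2.37), and both calls were lost with that pair as 1 library. Tpx2 had 1164 and 1230 normalised counts in uninjured Foxj1-tdT and 421 and 466 at 5 dpi, against 1634 and 1081 and then 1930 and 3354 in Foxj1-Olig2-tdT.

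Where a group is listed at 0 the fitted value depends on the pseudocount and bounds nothing. This holds at 5 dpi for Arc (12.11), Oca2 (-11.54) and Olfm4 (8.95), and at 1 dpi for Ttll10 (6.03). Oca2, a melanosome transporter gene, was listed at 0 in both Foxj1-Olig2-tdT libraries at 5 dpi and had 110 and 124 normalised counts in its uninjured ones, against 0 and 5.90 uninjured and 57.1 and 75.5 at 5 dpi in Foxj1-tdT. Olfm4 was above 0 in only 3 of the 12 libraries, and its call was lost in 13 of 18 alternatives.

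At 1 dpi the changes of Ankub1 and Gm28729 were higher in Foxj1-Olig2-tdT, with differences of 2.21 and 2.36. Gm28729 had 2514 and 2404 normalised counts in uninjured Foxj1-tdT and 371 and 290 at 1 dpi, against 1920 and 1212 and then 985 and 1119 in Foxj1-Olig2-tdT. Both calls were lost with the Foxj1-tdT uninjured pair as 1 library.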

How the results depend on the processing

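The number of ependymal-only peaks, 2953 as chosen, followed its thresholds: it was 4782 at 5 CPM or more, 1477 at 20 CPM, 5797 at 2 times the other pools, 1155 at 8 times and 662 when Poisson limits had to be 4 times apart. Weighting cells equally, counting each cell once per peak, or leaving out EP1, EP2 or EP3 gave 2905 to 3535. The share near a start, 7.11%, was 5.55% within 1 kb, 12.7% within 5 kb, 5.80% at 8 times, 9.005% at 20 CPM and 4.71% with known starts alone, an alternative added after the data were seen, as were all results on the interaction.

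For genes called by limma, counts follow in the order Foxj1-tdT at 1 dpi and 5 dpi, Foxj1-Olig2-tdT at 1 dpi and 5 dpi, between genotypes uninjured, at 1 dpi and at 5 dpi, and interaction at 1 dpi and 5 dpi. They were 102, 95, 23, 132, 7, 11, 90, 4 and 54 of 195. With the near-identical pair as 1 library they were 51, 46, 16, 123, 0, 2, 69, 0 and 24. With the nearest gene up to 100 kb they were 511, 441, 149, 646, 128, 53, 324, 34 and 195 of 1543, and at 8 times the other pools 25, 26, 6, 40, 1, 5, 24, 2 and 15 of 55, where other or fewer genes are tested by construction. With known starts alone the uninjured genotypes differed for 2 genes of 128. Leaving out each library in turn gave 51 to 110, 45 to 97, 8 to 25, 110 to 131, 0 to 11, 1 to 15, 57 to 95, 0 to 9 and 24 to 62. A pseudocount of 8, no filter, median-of-ratios factors and quantile normalization kept each count within 1.5 times. Of 3924 alternatives to 218 calls of single genes, 3387 kept the call, 537 lost it and 0 changed sign, and the cause of the losses was not tested.

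Replicate numbers do not pair the libraries: deviations of libraries with the same number correlated between -0.03 and 0.02 across genes. A replicate block moved the count between genotypes at 1 dpi to 7, and no other of the 9 counts by over 1.5 times.

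All peak levels rest on 1 library, in which a single cut is worth 0.715 CPM in the vascular pool, so low levels there are uncertain. The bulk depth is unknown, and 2 libraries per group limit the precision of each fold change.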

Other observations

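Genes hardly present before injury were few among those with an ependymal-only peak within 2 kb. In uninjured libraries of both genotypes 10 of 196 were under 10 normalised counts (5.10%), against 1979 of 16299 genes in the whole table (12.1%). Of these 10, 7 reached 50 or more in both libraries of an injured group, among them Clcf1, Gdnf, Hcn3, Igf1, Prok2 and Sel1l3, and of the 1979, 454 did (22.9%). Clcf1, Gdnf, Igf1 and Prok2 encode secreted factors. The limits of 10 and 50 were chosen after the values were seen, and the shares were not tested.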
